A study of Zea mays with 12 samples.

Results

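Chromosome 4 of maize is described here by its replication timing segments, that is, by every segment that the deposited whole-genome timing map places on chromosome 4. There were 2505 of them among 20613 segments on the 10 chromosomes. The map ends at base 250290000 on this chromosome, in the authors' coordinates. Which genome build these follow is not stated in the material used here. Each segment carries a timing class: early S phase (ES), early to mid (ESMS), mid (MS), mid to late (MSLS) or late (LS). On chromosome 4, 731 segments were MS, 625 ESMS, 539 MSLS, 317 ES and 291 LS, and 2 short segments carried the class ESLS, a name that joins early and late.

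Plant cells copy their chromosomes in a set order through S phase, and cells of the same tissue largely share that order. Gene-rich open chromatin is generally copied early, and condensed, repeat-rich chromatin late. In maize, gene density is generally high towards the chromosome ends and low in the repeat-rich interior around the centromere. Zones of neighbouring origins that fire together early appear as early domains, and the sequence between them is copied later.

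The series profiled replication timing in root tips of the inbred line B73, whose genome is the maize reference. The groups were late S, mid S and early S nuclei with immunoprecipitation of labelled DNA, and G1 nuclei without immunoprecipitation as the genomic reference, with 3 biological replicates each, or 12 libraries. All 4 groups came from 3-day seedlings that took up the thymidine analogue EdU (25 µM) for 20 min before a 100 µM thymidine chase, and the terminal 1 mm of root was taken. Only DNA of nuclei in the mitotic cell cycle of this mixed tissue was sorted, so the map is an average over root tip cell types.

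The map is a single segmentation with no value for any library, so no replicate error and no depth can be given. Chromosome 4 is set against the other 9 chromosomes, whose values are given as mean ± SD (n = 9). Chromosomes are parts of the same genome and not replicates. No test was made of chromosome 4 against the others, since singling out 1 of 10 cannot give an exact permutation p below 0.1. Ranks and SDs are therefore descriptions.

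Less of chromosome 4 was early than of any other chromosome. ES covered 20.7% of its classified sequence, against 28.4 ± 2.97% on the other 9, which ranged from 23.7% (chromosome 10) to 32.5% (chromosome 1). ESMS was also lowest, at 7.38% against 8.88 ± 1.14%. The later classes took up the difference: MSLS was the highest of the 10 at 11.9%, against 9.37 ± 1.38%, and LS covered 24.1%, against 20.4 ± 3.88%, exceeded on chromosome 7 at 26.8%. MS covered 35.8%, against 32.9 ± 2.40%. Chromosome 4 held 1.16 bases of LS for each base of ES, the highest ratio of the 10, against 0.736 ± 0.198, while the next highest was 1.09 on chromosome 7. The ES share lay outside the range of the other 9, while the MS and LS shares lay inside it.

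The shortfall of early sequence was concentrated in the last 20% of the chromosome. There, ES covered 33.4% on chromosome 4, against 64.5 ± 5.77% on the other 9, none of which was below 54.4%. MS covered 40.6% of the same part, against 21.2 ± 5.26%, and MSLS 7.73%, against 1.34 ± 1.05%. Both were the highest of the 10 and outside the range of the others. LS covered 9.51%, against 2.79 ± 3.75%, and chromosome 5 was higher at 10.3%. This part was also the poorest in genes of the 10, with 18.8 protein-coding genes per Mb, against 27.2 ± 2.38.

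The first 20% did not stand apart in the same way. ES covered 22.5% of it, against 35.9 ± 16.2%, and chromosomes varied widely there, with values between 13.7% and 57.7%. MS was 44.6%, against 35.4 ± 7.23%. In the middle 60%, ES was 16%, against 13.8 ± 3.71%, and LS 32.4%, against 29.3 ± 5.54%, both inside the range of the others. MS in the middle was the lowest of the 10, at 31.4%, against 36 ± 3.19%, level with chromosome 7 to 3 digits. Split by part, as percentage points of each chromosome's classified sequence, chromosome 4 differed in ES from the mean of the others by -2.72 points in the first 20%, +1.27 in the middle and -6.17 in the last 20%. This split was chosen after the values had been seen.

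The usual contrast between ends and interior was weak on chromosome 4 with the parts as cut above, and less so with wider ends. ES was 28.0% over both ends together, against 50.3 ± 5.77% on the other 9. The ES share of the ends exceeded that of the middle by 12 percentage points, against 36.5 ± 7.26, and the smallest such excess elsewhere was 23.9 on chromosome 6. MS behaved in the opposite sense. Its share was 11.2 points higher at the ends than in the middle on chromosome 4, whereas it was lower at the ends on each of the other 9, by 7.71 ± 5.31 points on average. With the outer 30% as ends, the ES excess of chromosome 4 was 19.1 points. Its difference from the mean of the others was then -10.7 points, against -24.4 with the ends used above.

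**Figure D1:**
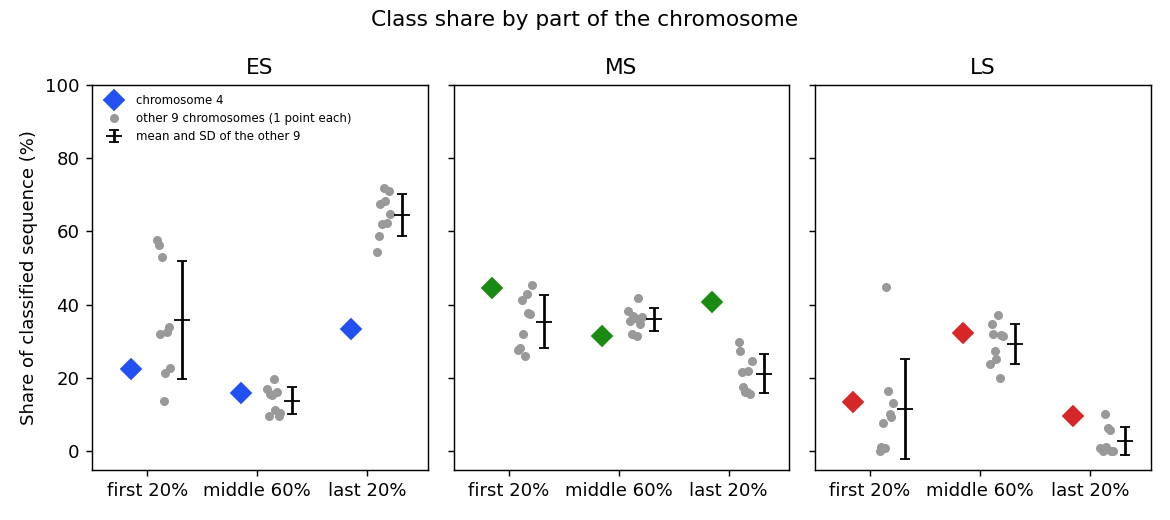
Share of classified sequence in ES, MS and LS (vertical axes, percent) in the first 20%, middle 60% and last 20% of each chromosome. Diamonds are chromosome 4, grey points the other 9 chromosomes and bars their mean and SD; the ES diamond of the last 20% lies at 33.4%, below all 9 grey points, and the MS diamond at 40.6% lies above them.

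Dividing each chromosome into 20 bins of equal relative length placed the difference more closely. The ES share of chromosome 4 was below that of every other chromosome in 3 adjoining bins. From 80% to 85% of its length it was 29.9%, against 46.2 ± 9.07%. From 85% to 90% it was 12.5%, against 59.8 ± 14.1%, and from 90% to 95% it was 14.2%, against 74.3 ± 12.5%. In the last bin the difference was gone, at 76.7% on chromosome 4 against 77.8 ± 12.3% on the others. LS exceeded every other chromosome in the bin from 90% to 95%, at 21.6%, against 0.354 ± 0.968%. The opposite departure occurred further inside. From 70% to 75% of the length, ES covered 67.9% of chromosome 4, against 28.6 ± 6.32%, above each of the others. The first end was low as well, but inside the wide range of the others. ES was 21.0% from 0% to 5%, against 56.5 ± 25.9%, and 18.8% from 5% to 10%, against 39.6 ± 19.2%. MS was above every other chromosome in both of these bins, at 38.1% and 49.5%. Across all 20 bins ES was below the mean of the others in 15 and above it in 5.

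**Figure D2:**
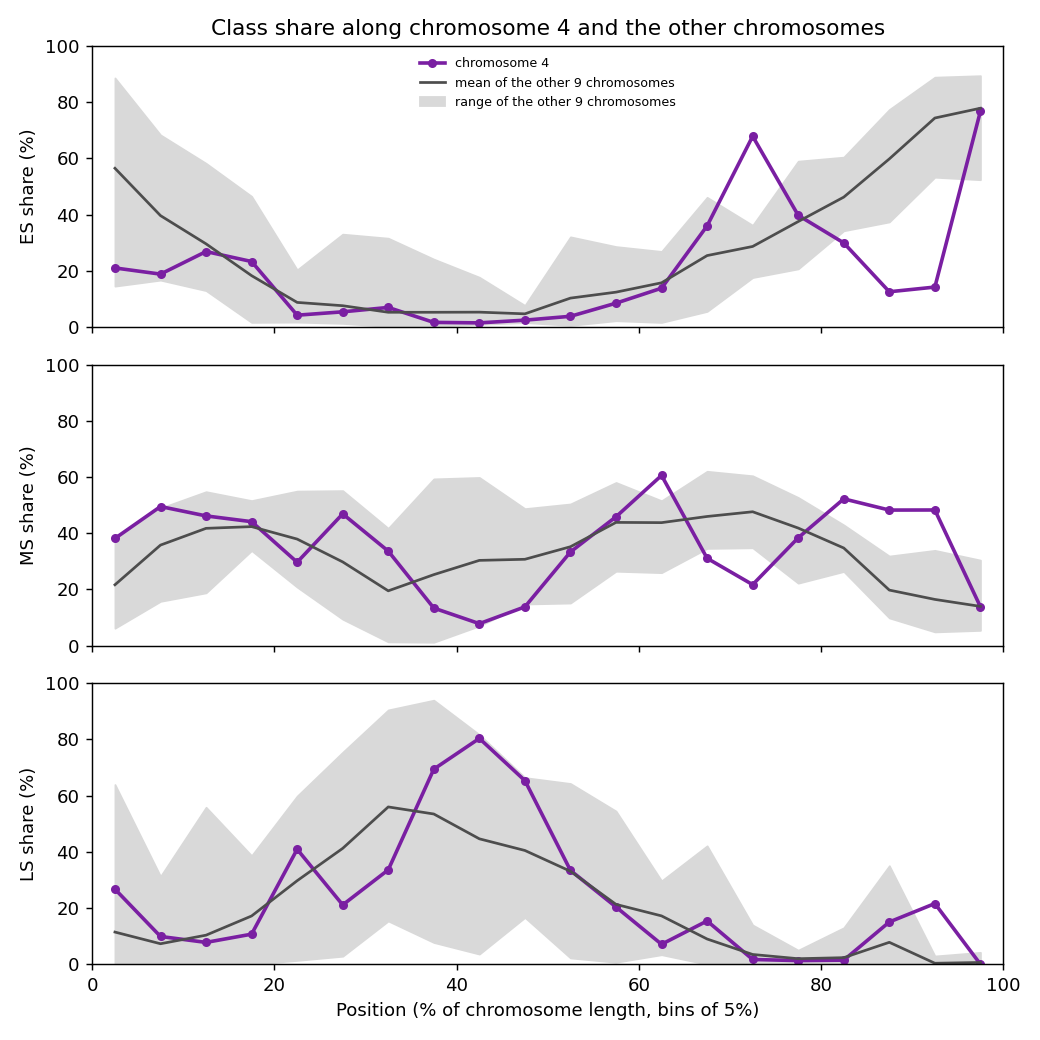
ES, MS and LS share (vertical axes, percent) against position as percent of chromosome length in bins of 5%. The purple line is chromosome 4, the dark line the mean of the other 9 chromosomes and the grey band their range; the ES line leaves the band upwards at 70% to 75% (67.9%) and downwards from 80% to 95%, and rejoins it in the last bin (76.7%).

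The profile along the chromosome was followed in steps of 5 Mb, of which 50 held at least 1 Mb of classified sequence. MS was the leading class in 28 of them, LS in 14 and ES in 8. The median step held 13% ES, 37.7% MS and 18% LS. ES passed 50% in 5 steps, or 10%, against 86 of 380 steps, or 22.6%, on the other 9 chromosomes. LS passed 50% in 9 steps, or 18%, against 63 of 380, or 16.6%. Neighbouring steps were grouped into zones after their values had been seen, and the zones serve only to describe the course from the first base to the last.

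From 0 to 15 Mb the classes were mixed, with 19.2% ES, 38.5% MS and 26.3% LS over 322 coding genes. The step from 0 to 5 Mb held 28.8% ES and 26.0% LS, and the step from 5 to 10 Mb held 19.0% ES and 33.3% LS, although their gene densities of 25 and 25.2 coding genes per Mb were among the 6 highest of the chromosome. A 1.32 Mb LS segment lies in that second step, from 8650001 to 9970000, and holds 32 annotated pseudogenes. No other segment of the chromosome held more than 7, and this one was noticed after the counts had been seen.

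From 15 to 45 Mb MS led every step, with 47.6% of the zone, and ES and LS covered 26.3% and 5.72%. ES then dropped below 10% at 45 to 50 Mb and stayed there up to 145 Mb. Late sequence came in 2 waves over this interior. LS led the steps from 55 to 65 Mb, at 51% and 43.9%, and MS led again from 65 to 80 Mb with 52.0%, 52.6% and 42.4%.

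The second and larger wave ran from 85 to 125 Mb, where LS covered 69.9% and ES 2.60%. All 8 steps of this zone had over 50% LS. The step from 105 to 110 Mb was the latest of the chromosome, with 92.7% LS, 2.22% MS and no ES. It was followed by 110 to 115 Mb, with 81.3% LS and no ES, and the third latest was 90 to 95 Mb with 71.0% LS. The stretch from 105 to 115 Mb held 28 coding genes, or 2.80 per Mb. The whole zone had 183 coding genes, or 4.58 per Mb, of which 36.1% lay in LS and 9.29% in ES.

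From 125 Mb LS gave way to MS, which led all steps from 130 to 165 Mb and peaked at 66.3% between 155 and 160 Mb, the highest MS share of the 50 steps. ES was lowest outside the late zone at 135 to 140 Mb, where it covered 0.402% although the step had 55 coding genes, and MS covered 47.2% of it. ES led at 165 to 170 Mb with 48.3%, and at 170 to 175 Mb ES, MS and LS were close to level, at 26.1%, 27.7% and 26.3%.

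An early block followed from 175 to 195 Mb. ES covered 62.4% and LS 1.42%. Its steps had 73.1%, 56.2%, 72.1% and 48.1% ES, and the first of them was the third highest of the 50. The block held 490 coding genes at 24.5 per Mb, and 79.2% of them lay in ES. Its ES segments had a median length of 220 kb, against 100 kb over the whole chromosome, and the longest was 930 kb. That segment, from 178020001 to 178950000, holds pcna2, which encodes the sliding clamp of DNA polymerase, and the microRNA genes MIR396a and MIR396e.

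Towards the end the early block gave way to the dip that sets the last arm apart. From 195 to 210 Mb the ES share was 19.8%, 43.7% and 25.7% in successive steps. From 210 to 235 Mb it stayed between 8.85% and 14.5%, and the zone held 12.3% ES, 48.1% MS, 14.4% MSLS and 18.8% LS. Its 2 most MS-rich steps, 220 to 225 Mb at 62.4% and 210 to 215 Mb at 60.2%, followed the step from 155 to 160 Mb in rank. The zone had 293 coding genes at 11.7 per Mb, with 21.2% of them in ES and 15.7% in LS. Its 26 LS segments included one of 1.27 Mb, from 232310001 to 233580000, with 1 coding gene.

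The chromosome end was early, except that the last 0.29 Mb, from 250 Mb on, held 37.9% ES and 58.6% MS. ES covered 37.1% of the step from 235 to 240 Mb, 81.7% from 240 to 245 Mb and 84.5% from 245 to 250 Mb, and the last of these shares was the highest of the 50 steps. From 240 Mb to the end no base was MSLS or LS, and 92.5% of the 374 coding genes lay in ES. The step from 245 to 250 Mb was also the richest in genes, with 221, or 44.2 per Mb.

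**Figure D3:**
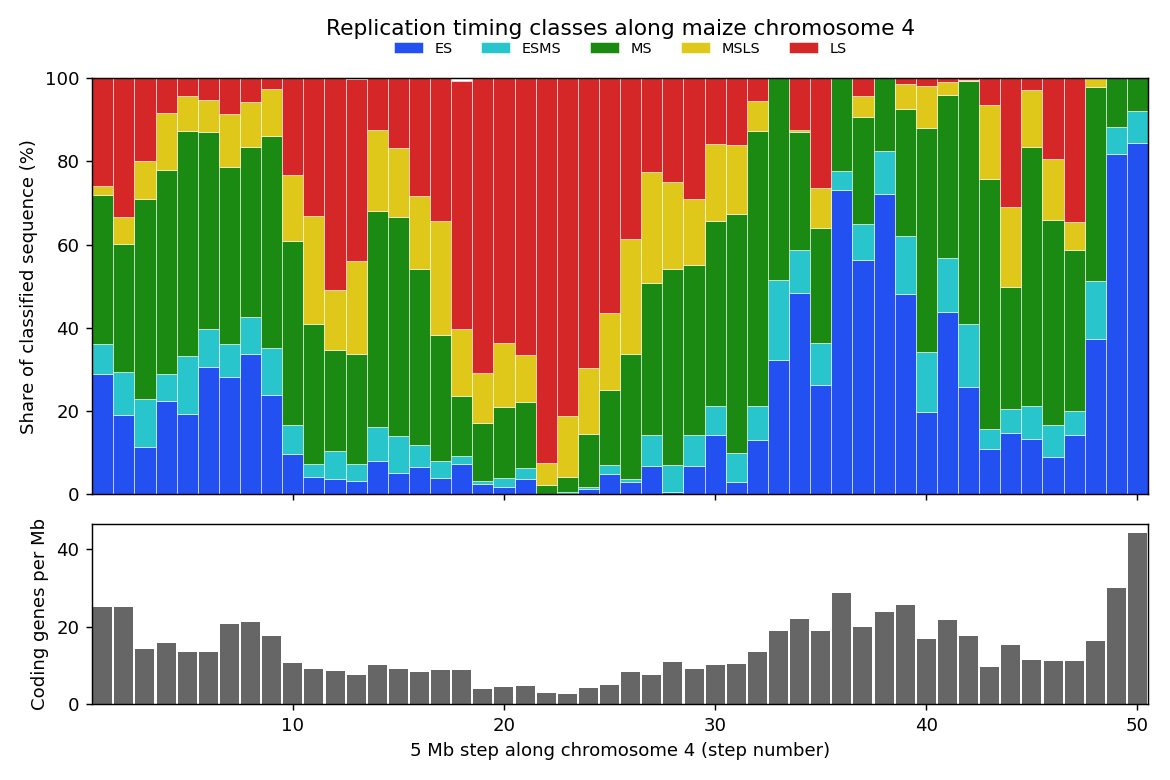
Stacked shares of the 5 timing classes (upper panel, percent of classified sequence) and protein-coding genes per Mb (lower panel) in the 50 steps of 5 Mb along chromosome 4, numbered from the first base. LS fills most of steps 18 to 25, ES most of steps 36 to 38 and of the last 2, and MS leads every step from 4 to 9.

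The ES share of a step followed its gene density. Over the 50 steps Pearson's r was 0.897 (Spearman's rho 0.924), against r = 0.936 over 380 steps of the other 9 chromosomes. LS gave r = -0.673 and MS r = -0.02 on chromosome 4. Steps of a chromosome adjoin each other and share the segmentation, so these are descriptions. Grouped by gene density, with limits chosen after the step values had been seen, the steps with 8 to 16 coding genes per Mb had 10.1 ± 7.11% ES on chromosome 4 (SD, n = 23 steps), against 12.8 ± 8.25% elsewhere (n = 123). With 16 to 24 per Mb ES was 37.2 ± 15.4% (n = 12), against 40.1 ± 12.9% (n = 104). With under 8 per Mb it was 2.58 ± 2.20% (n = 9), against 2.87 ± 3.03% (n = 82). These differences were smaller than the spread between steps. With 24 or more per Mb ES was 55.9 ± 28.1% (n = 6), against 71.8 ± 15.2% (n = 71), and the 2 lowest of those 6 steps were the ones between 0 and 10 Mb. Steps with 8 to 16 genes per Mb made up 46% of chromosome 4, against 32.4% elsewhere.

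ES segments were short on average on chromosome 4. Their mean length was 161 kb, the lowest of the 10, against 187 ± 11.3 kb. The median of 100 kb, against 109 ± 9.50 kb, was shared with chromosomes 3, 9 and 10. The upper quartile of 180 kb, against 191 ± 25.4 kb, lay inside the range of the others. The longest measured 1.33 Mb, against a longest of 2.65 ± 0.892 Mb elsewhere, and no other chromosome stopped short of 1700 kb. All 3 of the longest lay in the last 10 Mb. The first, from 247600001 to 248930000, held 72 coding genes and 13 tRNA genes. The second, from 240860001 to 242090000 (1.23 Mb), held 29 coding genes. The third, from 245380001 to 246530000 (1.15 Mb), held 56, among them the SBP-box transcription factor gene sbp20.

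LS segments were more numerous rather than longer. There were 1.18 LS segments per Mb, the most of the 10, against 0.909 ± 0.153, while their mean length of 204 kb was the lowest, against 225 ± 18 kb. Of these, 56 reached 300 kb, or 0.227 per Mb, against 0.187 ± 0.0419, and chromosome 6 was higher at 0.239. LS segments of 1 Mb or more numbered 8, or 0.0325 per Mb, against 0.0236 ± 0.00963, with higher rates on 3 chromosomes. The longest 3 all lay in the late interior. They ran from 104910001 to 107430000 (2.52 Mb, 10 coding genes), from 110690001 to 112510000 (1.82 Mb, 1 gene) and from 115580001 to 117210000 (1.63 Mb, 5 genes). MS segments had a median of 90 kb, against 86.7 ± 5.00 kb. The longest MS segments measured 800 kb (69270001 to 70070000), 710 kb (150590001 to 151300000) and 600 kb (75000001 to 75600000). The segments that carry a mixed class were short, with medians of 20 kb for ESMS and 40 kb for MSLS, the same on all 10 chromosomes.

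**Figure D4:**
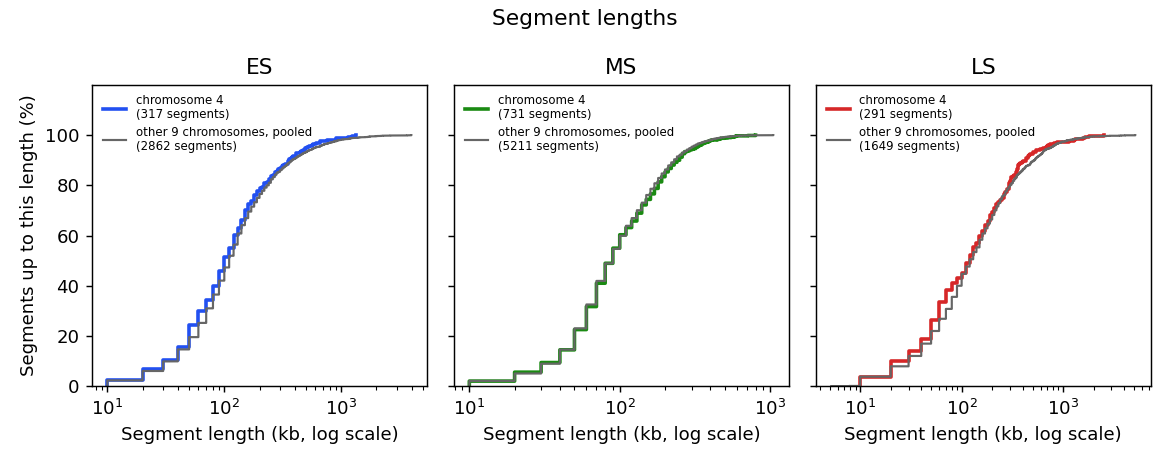
Cumulative percent of segments up to a given length (horizontal axes, kb on a log scale) for ES, MS and LS. Coloured lines are chromosome 4 and grey lines the other 9 chromosomes pooled; the coloured ES line runs left of the grey one and ends at 1330 kb, while the MS lines nearly overlie each other.

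Chromosome 4 was the most finely divided of the 10, with 10.2 segments and 9.69 boundaries per Mb, against 9.76 ± 0.323 and 9.29 ± 0.327. The lead was very small, since chromosome 1 had 10.1 segments and 9.68 boundaries per Mb. A boundary is counted here where 2 segments of different class touch with no gap, and there were 2386. Of these, 97.2% joined classes that are neighbours in time, against 96.7 ± 0.377%. Boundaries between the later classes were frequent, with 538 between MS and MSLS and 537 between MSLS and LS. Per Mb the MSLS to LS boundaries numbered 2.18, the most of the 10, against 1.64 ± 0.271. The MS to MSLS boundaries numbered 2.19, against 1.79 ± 0.254, and chromosome 10 was higher at 2.33. ES to ESMS boundaries made up 21.2% of the total, the lowest share of the 10, against 26.1 ± 2.84%. An ES segment touched MS directly at 63 boundaries.

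Abrupt changes were rare. MS met LS directly at 4 boundaries, at 3090001, 48870001, 145850001 and 225970001, against 3.00 ± 1.32 elsewhere. A boundary at 232250001 was the only place on the 10 chromosomes where ES touched LS. To its left is an ES segment of 100 kb with 2 coding genes. To its right are 10 kb of LS and 50 kb of MSLS without any, and then the 1.27 Mb LS segment named above. The direct contact thus rests on a single LS window of 10 kb. The 2 ESLS segments ran from 63440001 to 63450000 and from 88170001 to 88200000, and the second held 3 coding genes.

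Touching ES and ESMS segments were joined into early domains, and MSLS and LS segments into late ones. Chromosome 4 had 435 early domains with a median length of 90 kb, the shortest median of the 10, against 109 ± 11.7 kb. The longest early domain ran from 242500001 to 244370000 (1.87 Mb, 74 coding genes). There were 293 late domains, or 1.19 per Mb, against 0.998 ± 0.141, and chromosome 10 was higher at 1.25. The longest late domain ran from 113300001 to 117480000 (4.18 Mb, 13 genes). No ES base was found from 104750001 to 117540000, a stretch of 12.8 Mb with 37 coding genes, and among the other 9 only chromosome 2 had a longer one, at 18.4 Mb. The longest stretch without LS was the terminal one from 233830001 on, at 16.5 Mb with 473 coding genes. It was the shortest such maximum of the 10, and those of the other 9 were between 18.3 and 64 Mb.

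The position of mixed segments between their neighbours was read as slope, peak or dip. An ESMS segment between ES and MS is a slope, and 461, or 74.5%, of the 619 that touched a neighbour on both sides were slopes, against 74.8 ± 1.16%. ESMS segments that rose out of MS on both sides without reaching ES made up 21.6%, against 18.9 ± 1.80%. ESMS dips inside ES made up 3.72%, the lowest of the 10, against 6.19 ± 0.896%. Of the MSLS segments, 358, or 66.8%, were slopes between MS and LS, against 64.6 ± 2.77%. Earlier islands inside LS numbered 89, or 16.6%, against 15.3 ± 2.08%, with chromosome 9 highest at 18.7%. Per Mb they numbered 0.361, the most of the 10, against 0.263 ± 0.0548, on the chromosome with most MSLS segments per Mb. LS was reached through MSLS on both sides in 97.6% of 255 LS segments.

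No class was given to 114 gaps with 4.08 Mb, or 1.63% of the chromosome, against 1.76 ± 0.622%. The longest ran from 2150001 to 2510000 (360 kb, 4 coding genes), from 4130001 to 4380000 (250 kb, 1 gene) and from 108890001 to 109080000 (190 kb, 3 genes). Whether these are stretches of low coverage was not tested, since no coverage accompanies the map.

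RefSeq gene positions (assembly Zm-B73-REFERENCE-NAM-5.0) were used to place genes, each taking the class at its midpoint. On the whole chromosome the match between gene counts and ES was best with no shift between the coordinate systems. It was best within 20 kb of no shift in 11 of 13 windows of 20 Mb. The exceptions were the windows from 0 to 20 Mb, best at 100 kb, and from 80 to 100 Mb, best at -200 kb, so gene classes there are less certain.

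A smaller share of the genes of chromosome 4 lay in ES than on any other chromosome. It carried 3545 coding genes, or 14.2 per Mb, the lowest of the 10, against 15.9 ± 0.854. Of the 3481 with one of the 5 classes, 43.8% lay in ES, against 55.7 ± 3.57%, and no other chromosome had under 51.1%. The shares in MS (31.1%, against 23.8 ± 2.27%), MSLS (6.52%, against 4.09 ± 0.839%) and LS (8.07%, against 4.68 ± 1.41%) were each the highest of the 10. The density of genes within ES was less unusual, at 29.8 per Mb against 31.4 ± 1.75, with lower values on 2 chromosomes. Within LS it was the highest of the 10, at 4.74 per Mb against 3.57 ± 0.493. ES was thus 6.30 times as gene-dense as LS, the smallest ratio of the 10, against 8.93 ± 1.23.

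**Figure D5:**
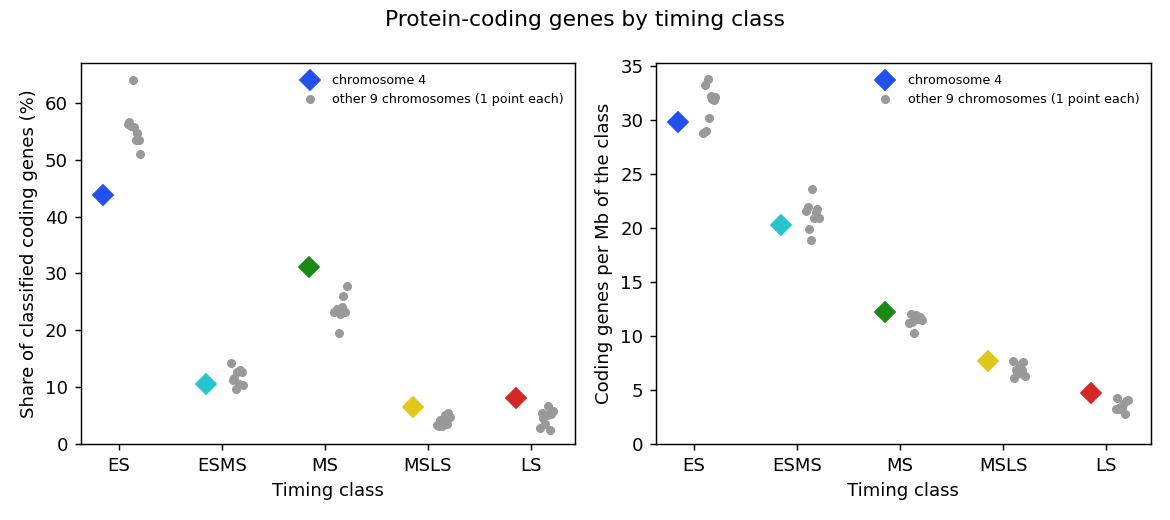
Left, percent of classified protein-coding genes in each timing class; right, coding genes per Mb of the class. Diamonds are chromosome 4 and grey points the other 9 chromosomes; in the left panel the ES diamond at 43.8% lies below all grey points and the MS, MSLS and LS diamonds lie above them.

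The 281 coding genes in LS lay in 120 of the 291 LS segments, and the other 171 had none. They spanned a median of 1636 bp from start to end, the shortest of the 10, against 1960 ± 246 bp, while ES genes spanned 3433 bp, against 3330 ± 57.5 bp. The 3 LS segments richest in coding genes held 43 of the 281, or 15.3%. Without these segments the LS density was 4.13 per Mb, below the 4.30 of chromosome 2. No segment was removed from the other chromosomes. The first, between 217710001 and 218410000, had 18 coding genes with a median span of 718 bp and 5 pseudogenes. The next, between 30360001 and 30660000, had 13 with a median of 1158 bp. The last, between 169400001 and 170150000, had 12 with a median of 348 bp and also 11 small nucleolar RNA (snoRNA) genes. Of the 317 ES segments, 32 held no coding gene, and the longest of those were 140 kb (211720001 to 211860000), 70 kb (17750001 to 17820000) and 60 kb (27920001 to 27980000).

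The shares of transfer RNA, snoRNA and microRNA genes and of pseudogenes in ES were lower on chromosome 4 than on the other 9 pooled, with no test made. Coding genes differed likewise, with 43.8% in ES, against 56.1%, and 8.07% in LS, against 4.48%. The ES share was 35.9%, against 57.4%, for snoRNA genes and 27.6%, against 40.9%, for pseudogenes. Small nuclear RNA genes did not follow, with 62.5% of 16 in ES, against 61.7% of 222. Transfer RNA genes lay in ES in 50 of 118 cases, or 42.4%, against 61.9% of 746. Of the 118, 26 form an array of alanine tRNA genes (TRNAA-AGC) between 235560001 and 236150000, of which 15 were MS and 11 ESMS. Without that array, which was noticed after the counts, 54.3% were ES. Among snoRNA genes, which guide chemical modification of ribosomal RNA, 23 of 78, or 29.5%, lay in LS, against 5.42% of 554. Without the 11 in the LS segment just named the share was 17.9%. A nearby LS segment, from 170220001 to 170410000, held 2 more and was kept. The removals of this segment and of the tRNA array were made on chromosome 4 alone. Pseudogenes lay in LS in 115 of 543 cases, or 21.2%, against 12.1% of 4370, and 32 of the 115 were those of the 1.32 Mb segment in the first arm. Long non-coding RNA genes lay in LS in 15.6%, against 12.3%. Of 20 microRNA genes 7 lay in ES, or 35%, against 53.1% of 143. Among them MIR169i, MIR169d, MIR169h and MIR169e sit side by side, MIR169d in an LS segment from 49620001 to 49930000 and the others in the MSLS segments that flank it. The first ES member by position was MIR169o, and the only other LS member was MIR156a.

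The alpha-zein genes, which encode the main storage proteins of the maize endosperm, are the best known gene clusters of this chromosome. Matching by symbol or synonym found 17 zein genes on it and 3 on all others. Zein genes annotated under other names would be missed, so these are not counts of all zein genes. None of the 17 was in ES, against 43.8% of all coding genes of the chromosome. In MS lay 15, against 31.1% of all coding genes, and in MSLS 2, in 4 clusters of genes less than 200 kb apart. Of 10 zein pseudogenes 9 were MS and 1 MSLS. The z1C1 cluster spanned an MS segment (6050001 to 6130000), an MSLS segment (6130001 to 6170000, with z1C1_7 and z1C1_8) and another MS segment (6170001 to 6240000). The z1A1 cluster filled an MS segment from 6510001 to 6650000. Both were enclosed by ES segments, from 5950001 to 6040000, from 6280001 to 6500000 and from 6650001 to 6770000. The gene z1C2, known as floury2 (fl2), lay in an MS segment of 500 kb from 22860001, and the z1A2 cluster in one from 31840001 to 32200000. Genes of a cluster share a segment or its neighbours and are not independent. The clusters from 6050001 to 6650000 lie in the window where gene positions are less certain.

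Genes of benzoxazinoid synthesis, the pathway of a group of defence compounds of young maize, lay in ES in 4 of the 6 cases with a class, in 2 clusters, against 43.8% of all coding genes of the chromosome. Of 8 on the chromosome, bx1, bx2 and bx8 shared an ES segment from 4030001 to 4130000. They encode the enzyme that makes indole for the pathway, the cytochrome P450 that first oxidises it and a glucosyltransferase. Bx7, an O-methyltransferase gene, lay in another ES segment from 19880001 to 19970000. The P450 genes BX3 and BX4 lay in MS (3850001 to 3890000) and ESMS (3890001 to 3920000), and BX5 and bx6 fell in gaps. All 8 lie in the first 20 Mb, where positions are less certain.

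Of 47 classical gene symbols looked up, only 25 matched an annotated gene on any chromosome, so the list may miss genes located here. On this chromosome were 14, and 8 of them lay in MS, the class of 31.1% of all coding genes of the chromosome. These were bt2 (a subunit of endosperm ADP-glucose pyrophosphorylase), fl2, tga1 (an SBP-box regulator of the glume), c2 (chalcone synthase), la1 (shoot gravitropism), orp1 (tryptophan synthase), rca1 (rubisco activase) and fea2 (a receptor-like protein of the shoot meristem). In ES, the class of 43.8% of all, there were 2, namely ub3, an SBP-box regulator of branching, and gpc1, a glycolytic glyceraldehyde-3-phosphate dehydrogenase. The alcohol dehydrogenase gene adh2 was ESMS, ts5 and ssu (rubisco small subunit) were MSLS, and a gene with the synonym ae1 was LS, in a 540 kb segment from 228890001 to 229430000. The symbol ae1 also matched a gene on chromosome 5, which was ES, so which gene the classical symbol means is not settled here. Both MADS-box genes, ZAG5 and tunicate1, were MS.

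The other gene lists are set beside all classified coding genes of the chromosome, of which 43.8% lay in ES and 8.07% in LS. Of 28 transcription factor genes of the NAC, WRKY, ERF, bZIP, bHLH and MYB families, 14 were ES, 3 ESMS, 7 MS, 1 MSLS and 3 LS. The first ES member by position was NAC115 and the LS members were bHLH165, myb39 and bHLH24. Of 193 elsewhere, 111 were ES and 9 LS. Of 7 SBP-box genes 6 were ES and tga1 was MS. Ribosomal protein genes were ES in 4 of 5 cases, the first being rps13, and both histone H2B genes, his2b2 and his2b5, were ES. Auxin transport and response genes were ES in 3 of 5 cases (AUX27, PIN1d and ARF16). Both heat shock genes, hsp22 and HSP90-2, were ES. The cyclin gene cycD2 was ES, and krp1, an inhibitor of cyclin-dependent kinases, was MS. Of 4 homeobox genes, HB115 and knox7 were ES, ocl5 MS and WOX3B MSLS. Of 4 aquaporin genes 2 were ES, and of 4 glycolysis and fermentation genes 1 was ES. These lists are short and hold genes that have been given names.

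The chromosomes most like chromosome 4 in the relative ES profile were 1 and 8, each with r = 0.590 over 20 bins, and the least like was chromosome 2 at 0.331. In the LS profile chromosome 1 was again first, at 0.893, and chromosome 8 was last, at 0.175. These values only order the chromosomes.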

How the data were processed

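Replication timing was measured by Repli-seq in 12 libraries of maize root tip nuclei, grouped by the labels. Reads were handled with Bowtie2 2.5.1, SAMtools 1.9 and Trimmomatic 0.39, per the submitters' processing notes. How segments were called, how replicates were treated and which build was used is not stated in the material used here. The deposited file gives the authors' timing class and the start and end of each segment in windows of 10 kb, with no score, count or signal, so the depth is unknown and no counting interval can be given. Shares were computed over classified bases, and percentages in 5 Mb steps, in 20 relative bins and in the outer 20% at each end. Steps with under 1 Mb classified were not ranked. Gene classes were read at gene midpoints from RefSeq positions, which are not printed because the build is not named. Python 3.11.15, numpy 2.4.6, pandas 2.3.3 and matplotlib 3.10.9 were used, and the code was tested on a simulated segmentation. Named were the 3 longest segments of ES, MS and LS, the 3 longest gaps, the 3 steps highest in each of ES, MS and LS and lowest in ES, the 3 LS segments with most genes, the 3 longest ES segments without genes, all ES to LS and MS to LS boundaries, all located zein, benzoxazinoid, MADS-box and classical genes, and the first ES and LS member of other lists. Other named features were picked with their values in view. The members and lists were chosen with earlier results of these data known, and list members were matched by symbol or synonym, with the SBP-box list added later.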

Additional observations from a re-analysis of the deposited data

How the results depend on the processing

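No paired analysis was possible because the map holds no value for any library, and for the same reason no replicate could be left out. The 25 values were recomputed 123 times under other settings. None changed sign, which counts and shares of steps could not do. Of the 123, 114 moved by less than 1 SD over the other 9 chromosomes or, for counts, by less than 1.5 times. These include 54 values that left out 1 other chromosome. Such a change cannot move the mean of 9 by 1 SD, so those 54 say nothing on stability by this limit. Leaving out each other chromosome in turn kept the ES share between -8.20 and -7.10 percentage points from their mean, and the share of genes in ES between -12.5 and -10.9. With the outer 30% in place of 20%, the last part differed in ES by -13.8 points, against -31.2. That wider part takes in the early block. In 10 Mb steps LS passed 50% in 12% of steps, against 18% in 5 Mb steps. Counting genes of the class within 200 kb of each other once gave 4 zein clusters in MS in place of 15 genes, 2 benzoxazinoid clusters in ES in place of 4, 32 tRNA clusters in ES in place of 50, 11 snoRNA clusters in LS in place of 23 and 61 pseudogene clusters in LS in place of 115. For RNA genes and pseudogenes this count was added after seeing the data, as was counting gaps as unclassified in the steps, which changed no share of steps. The mean correlation of the ES profile with those of the other 9 was 0.510. It was 0.641 with 10 bins, with chromosome 8 then most alike, and 0.596 for LS, and the cause was not tested. The map has no depth, so its precision cannot be stated.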
